A study of Mus musculus with 4 samples.

Results

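A set of 43 liver-type plasma protein genes was followed in the granulosa cells (GCs) of cultured mouse follicles, library by library. The set was defined by a list of gene symbols with no threshold on measured values, and all 43 symbols were found among the 55385 genes of the count table. By role it held 11 carrier proteins, 5 apolipoproteins, 10 protease inhibitors and their relatives, 11 genes of clotting, clot breakdown and adhesion, 5 complement genes and 1 gene of the urea cycle. All 43 were annotated as protein coding, and they lay on 18 chromosomes. Of them, 40 passed edgeR's filter on low counts and were among the 19259 genes tested.

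Total RNA of 4 bulk libraries was sequenced, 2 labelled NT4 and 2 labelled Control. Both groups were GCs of Kunming mice aged 12 to 14 days, taken from preantral ovarian follicles after 6 days of culture. The follicles of the NT4 group were grown with neurotrophin-4 (NT-4), a ligand of the TRKB receptor, and those of the Control group without it. By the study's methods, the medium of both groups also held follicle-stimulating hormone, an insulin, transferrin and selenium supplement, fetuin and bovine serum albumin. The study describes the samples of each group as coming from separate experiments, and the labels name no animal or culture, so the p-values measure the spread between these libraries.

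Plasma proteins are made chiefly by hepatocytes and secreted into the blood, where they carry lipids, metals, heme and hormones, form and dissolve clots, and hold proteases in check. Many of their genes have promoters and enhancers bound by a shared set of hepatocyte factors, the HNF1, HNF4, FOXA and C/EBP families, and some, such as Hp, Hpx and the fibrinogen genes, are acute phase genes that rise in the liver in inflammation. In the ovary, plasma proteins are known mostly as part of the follicular fluid, which they enter from the blood, and heavy chains of inter-alpha-trypsin inhibitor are bound to hyaluronan when the cumulus expands.

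Levels are given as CPM, the counts of a gene scaled to the library's total with TMM factors, in the order Control 1, Control 2, NT4 1 and NT4 2. The labelled cell type was checked first. All 12 granulosa markers were tested, and their summed level was 12874, 15099, 11596 and 16438 CPM, with Inha, which encodes the inhibin alpha subunit, the most abundant. The 43 plasma protein genes summed to 347, 177, 171 and 169 CPM. Control 1 therefore held 2.01 times the mean of the other 3 libraries, while the other Control library sat close to both NT4 libraries. Total counts were 49520092, 73743901, 61980073 and 78704020, and Control 1 was thus the shallowest library. One read pair added about 4 counts, so a gene with no count could lie at up to 3 read pairs, or 12 counts, which was 0.239, 0.163, 0.193 and 0.156 CPM. In bulk libraries, fewer cells of a type and less RNA per cell cannot be told apart.

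Control 1 was alone at the top for many of these genes. A library was said to stand alone at a gene when its CPM was at least 2 times that of the next highest library and its count was at least 12. Control 1 stood alone at 20 of the 40 members tested, against 1.36% of all genes tested. Control 2 stood alone at 0 of 40 (0.571% of all genes), NT4 1 at 0 of 40 (1.09%) and NT4 2 at 0 of 40 (0.556%). None of the 3 members under the filter had a library standing alone in this sense. Among genes with a mean level of 1 to 10 CPM, where most members lay, Control 1 stood alone at 15 of 27 members and at 1.08% of genes, and each other library stood alone at 0 of 27, against 0.304% of genes for Control 2, 0.585% for NT4 1 and 0.514% for NT4 2.

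The 20 members were Ahsg, Trf, Hpx, Hp, Ambp, Apoa2, Apoh, Serpinc1, Itih1, Itih3, Itih4, Fga, Fgb, Fgg, F2, F10, F12, Kng1, Vtn and C4b. Their ratio of Control 1 to the next library ran from 2.01 at Fga to 4.03 at C4b, with a median of 2.59. Just inside the limit lay Fga and Vtn, with ratios of 2.01 and 2.04, and just outside it lay Serpinf2 and Cps1, with 1.81 and 1.56. With a limit of 3 in place of 2, Control 1 stood alone at 6 of 40 members, against 0.296% of all genes. For 16 of the 20, the exact Poisson interval of Control 1 (95%, on estimated read pairs, counting error only) lay above those of all other libraries. The exceptions were Itih1, F2, F10 and F12, all with few reads. Its interval also lay above all others at Alb and Ttr, where it did not stand alone, which made 18 members in all. Control 1 was the highest library at 30 of 40 members, against 23.4% of all genes. The other 10 were spread over Control 2 with 5, NT4 1 with 4 and NT4 2 with 1.

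**Figure D1:**
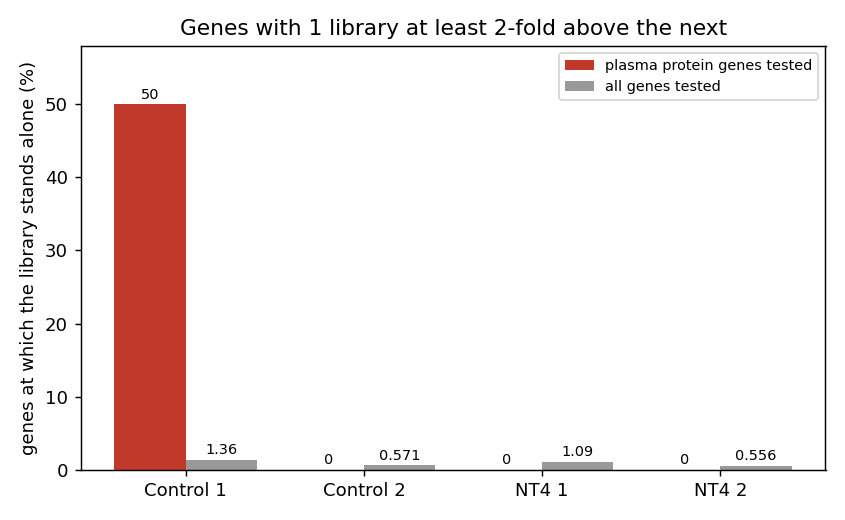
Share of genes, in percent, at which each library stood alone, that is, at least 2-fold above the next highest library with at least 12 counts. Red bars are the 40 plasma protein genes tested and grey bars all 19259 genes tested. Control 1 stood alone at 50% of the plasma protein genes and the other 3 libraries at 0%, while the share over all genes ran from 0.556% to 1.36%.

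Pairs of libraries were then compared on the log2 scale. The median difference over the 40 members was 1.02 for Control 1 over Control 2, 1.35 for Control 1 over NT4 1 and 1.28 for Control 1 over NT4 2. Control 2 exceeded NT4 1 by a median of 0.19 and NT4 2 by 0.38, and the NT4 libraries were 0.017 apart. The median over all genes was -0.0091 for Control 2 over NT4 2 and nearer to 0 for every other pair. The difference between the Control libraries was thus larger than the difference between Control 2 and either NT4 library.

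**Figure D2:**
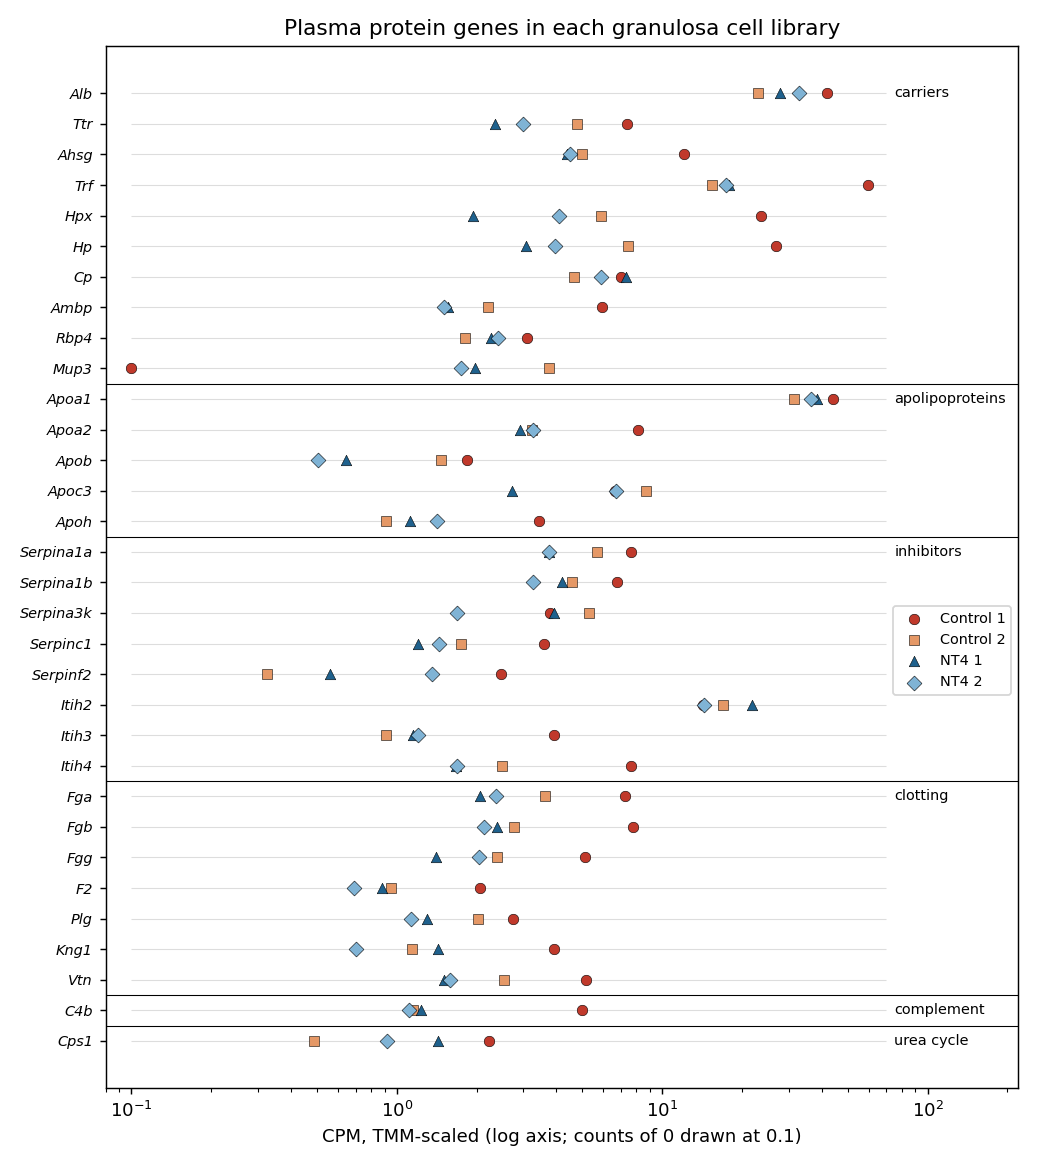
CPM of the 32 members that reached 1 CPM in any library, on a log axis, grouped by role, with 1 marker per library and a count of 0 drawn at 0.1. Control 1 (red circles) lies to the right of the other markers for most genes of the carrier, inhibitor and clotting groups, and Alb, Cp, Rbp4, Apoa1 and Itih2 have all 4 markers close together.

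Among the carriers at which Control 1 was the highest library, the genes of heme, hemoglobin and iron transport had the widest gaps. Trf encodes transferrin, the iron carrier, and stood at 59.7, 15.4, 17.8 and 17.3 CPM. Hp, for haptoglobin, which binds free hemoglobin, was at 26.8, 7.43, 3.08 and 3.96 CPM. Hpx, for the heme-binding hemopexin, was at 23.5, 5.89, 1.94 and 4.07 CPM. In all 3, Control 1 stood far above the rest, and for Hp and Hpx, but not for Trf, Control 2 also exceeded both NT4 libraries. The Poisson interval of Hpx in Control 1 was 20.9 to 26.4 CPM, and in Control 2 it was 4.83 to 7.10 CPM. For Trf, 2108 of 3320 exonic bases were shared with an overlapping gene model on the same strand, Gm20425, which was not used here.

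Ahsg, which encodes fetuin-A, was at 12.1, 4.99, 4.36 and 4.51 CPM. Ambp, the common precursor of alpha-1-microglobulin and bikunin, was at 5.957, 2.210, 1.556 and 1.505 CPM. At both, Control 1 stood alone, and Control 2 exceeded both NT4 libraries by a smaller step. Ttr, for transthyretin, which carries thyroxine and the retinol-binding protein, graded more evenly, at 7.37, 4.77, 2.34 and 2.98 CPM. At Ttr too, both Control libraries exceeded both NT4 libraries, but Control 1 was only 1.54 times Control 2.

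At other carriers, albumin among them, Control 1 did not stand alone by the 2-fold rule. Alb, for albumin, the main protein of plasma, was at 41.9, 23.0, 27.8 and 32.9 CPM. Cp, for the copper-carrying ferroxidase ceruloplasmin, was at 6.97, 4.65, 7.30 and 5.86 CPM. Rbp4, for the retinol carrier, was at 3.09, 1.80, 2.26 and 2.41 CPM. In these 3 genes Control 2 was the lowest library and the groups overlapped. For Alb the Poisson interval of Control 1, 38.4 to 45.6 CPM, still lay above that of NT4 2, 30.4 to 35.6 CPM.

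Mup3, a major urinary protein that binds pheromones, went the other way. Its counts were 0, 276, 123 and 135, or 0, 3.74, 1.97 and 1.75 CPM. Set against 12 counts in Control 1, the level was at least 15.7-fold higher in Control 2, 8.25-fold in NT4 1 and 7.32-fold in NT4 2. The 22 Mup genes in the table, near-identical copies among which reads may be split, summed to 0, 626, 143 and 152 counts, so the library that was highest for most plasma protein genes held none for this family. Afp, which encodes the fetal relative of albumin and starts 14134 bp beyond the end of Alb on chromosome 5, had 0, 0, 5 and 9 counts. That is under 12 counts in each library, and Afp was not tested.

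Apolipoproteins, the protein part of lipoprotein particles, divided in the same manner. Apoa1, the main protein of high density lipoprotein, was at 44.1, 31.5, 38.3 and 36.4 CPM, with Control 2 the lowest and the groups overlapping. Apoa2, its partner in the same particles, was at 8.11, 3.24, 2.90 and 3.26 CPM, and Apoh, which encodes beta-2-glycoprotein I, was at 3.43, 0.909, 1.12 and 1.41 CPM. At both, Control 1 was alone, and the other Control library did not exceed both NT4 libraries. Apob, the structural protein of low density lipoprotein, was at 1.83, 1.46, 0.642 and 0.506 CPM, with the Control libraries close to each other and above both NT4 libraries. Apoc3, an inhibitor of lipoprotein lipase whose gene ends 2466 bp from Apoa1, was at 6.63, 8.73, 2.73 and 6.71 CPM, with Control 2 the highest and only NT4 1 low.

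Levels can be compared between genes only per length of exon. On the scale of CPM per kb, Apoa1 was the highest member in each library, at 35.7, 25.5, 31.0 and 29.5. Alb was at 17.9, 9.82, 11.9 and 14.1 CPM per kb, and came next in Control 2, NT4 1 and NT4 2. In Control 1, Trf at 18.0 CPM per kb was about level with Alb, and Hp at 16.7, Hpx at 15.7 and Apoa2 at 15.1 CPM per kb followed. In Control 2 the next were Apoc3 at 8.61 and Apoa2 at 6.04 CPM per kb, in NT4 1 Itih2 at 6.56 and Apoa2 at 5.41, and in NT4 2 Apoc3 at 6.61 and Apoa2 at 6.06, so the order below Apoa1 and Alb differed between libraries. Apoa1, Alb and Trf took 44.7% of the summed CPM of the set. Without these 3, the sum of the other 40 members was 201, 107, 86.9 and 82.7 CPM, and Control 1 remained the highest.

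The protease inhibitors and their relatives included genes with and without the gap. Serpinc1, for antithrombin, was at 3.59, 1.75, 1.20 and 1.44 CPM, with Control 1 alone at the top. For Serpinc1, 2942 of 8546 exonic bases lay across exons of Zbtb37 on the other strand, which had 1352, 2136, 1823 and 1980 counts, and whether counting used strand is not stated. Serpinf2, for alpha-2-antiplasmin, was at 2.47, 0.325, 0.561 and 1.36 CPM, a spread in which Control 1 was the highest and Control 2 the lowest library.

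Serpina1a and Serpina1b encode alpha-1-antitrypsin and are close copies, so their reads may be split between them. Serpina1a was at 7.63, 5.68, 3.75 and 3.76 CPM, and Serpina1b at 6.77, 4.56, 4.19 and 3.27 CPM. In both, the 2 Control libraries exceeded the 2 NT4 libraries by small steps and no library stood alone. The 6 genes of the Serpina1 family summed to 21.8, 14.5, 12.0 and 10.7 CPM, in the same order. Serpina3k, a member of another serpin cluster with close copies, was at 3.77, 5.32, 3.91 and 1.69 CPM, where Control 2 was highest. Serpind1, which encodes heparin cofactor II, had 26, 19, 40 and 27 counts, and its groups overlapped.

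Itih1, Itih2 and Itih3 encode heavy chains of inter-alpha-trypsin inhibitor, which can be linked to hyaluronan, and Itih4 encodes a related protein. The 4 genes differed in which library was highest. Itih4 was at 7.63, 2.50, 1.67 and 1.69 CPM and Itih3 at 3.93, 0.909, 1.16 and 1.21 CPM, both with Control 1 alone at the top. Itih1 had only 41, 18, 21 and 0 counts. Itih2 was at 14.2, 17.0, 21.8 and 14.3 CPM, with Control 1 the lowest library and NT4 1 the highest. Itih1, Itih3 and Itih4 lie side by side on chromosome 14, with 5419 bp between Itih1 and Itih3 and 6218 bp between Itih3 and Itih4, while Itih2 lies on chromosome 2.

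The clotting genes shared their highest library. Control 1 was the highest library at 9 of the 9 members tested and stood alone at 8 of them. The chains of fibrinogen, the precursor of fibrin, lie within 42140 bp on chromosome 3. Fga was at 7.23, 3.61, 2.05 and 2.36 CPM, Fgb at 7.79, 2.77, 2.39 and 2.13 CPM, and Fgg at 5.12, 2.39, 1.41 and 2.05 CPM. All 3 chains had Control 1 at the top, Control 2 next and the NT4 libraries below. Per kb of exon, Fga was at 2.40, 1.20, 0.682 and 0.784 CPM per kb. Fgb was at 2.04, 0.726, 0.627 and 0.558 CPM per kb, and Fgg at 2.45, 1.14, 0.674 and 0.979 CPM per kb. On this scale Fgb was the lowest chain in each library.

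Vtn, for vitronectin, an adhesive protein of plasma and matrix, was at 5.18, 2.54, 1.51 and 1.58 CPM. Kng1, the kininogen from which bradykinin is cut, was at 3.91, 1.14, 1.43 and 0.701 CPM. F2, for prothrombin, was at 2.05, 0.949, 0.882 and 0.688 CPM. At each of these Control 1 was alone at the top. Plg, for plasminogen, the precursor of the clot-dissolving protease plasmin, was at 2.75, 2.02, 1.30 and 1.13 CPM, with both Control libraries above both NT4 libraries.

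The other 4 coagulation factors of the set were at low counts. F10, the factor that cuts prothrombin, had 38, 8, 22 and 23 counts, and F12, the contact factor, had 28, 14, 4 and 8 counts. F7, which starts the cascade with tissue factor and lies 1498 bp from F10, had 8, 4, 4 and 8 counts, and F9, the factor lacking in hemophilia B, had 0, 0, 0 and 10 counts. F7 and F9 were under 12 counts in each library and were not tested.

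Complement members of the set were mostly near the floor. C4b, a complement component of the classical and lectin routes, was the exception, at 4.98, 1.15, 1.24 and 1.12 CPM, where Control 1 stood alone at the highest ratio of any member. Its close copy C4a, which is no member and was looked at for that reason, was at 0.917, 1.82, 1.04 and 1.05 CPM, so the copies differed in which library was highest. Reads may be split between these copies. The 2 genes together summed to 5.90, 2.97, 2.28 and 2.17 CPM, a smaller gap than at C4b alone. The terminal components, whose products join to form the membrane attack complex, ranged over the libraries from 0.305 to 0.480 CPM for C8a, 0.128 to 0.434 CPM for C8b, 0.052 to 0.339 CPM for C9 and 0.363 to 0.610 CPM for Hc, which encodes C5. Control 1 was the highest library at none of these 4. Cps1, the first enzyme of the urea cycle and the member whose product stays within the cell, was at 2.23, 0.488, 1.43 and 0.921 CPM, with Control 1 the highest and Control 2 the lowest library.

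The sums by role placed Control 1 highest in all 6 roles. Relative to the mean of the other 3 libraries, the sum in Control 1 was 2.77 times for clotting, 2.53 times for carriers, 2.45 times for complement, 1.44 times for inhibitors, 1.38 times for apolipoproteins and 2.36 times for the urea cycle gene. For clotting the sums were 35.5, 15.8, 11.5 and 11.3 CPM. The complement sum was carried by C4b, and without it the other 4 complement members summed to 1.32, 1.67, 1.28 and 1.25 CPM, with Control 2 the highest. For inhibitors the sums were 51.4, 38.5, 39.2 and 29.1 CPM.

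The question of the design is whether NT-4 changed these transcripts. With edgeR's quasi-likelihood test adjusted over all 19259 genes, 0 of 40 members passed an adjusted p of 0.05, and 0% of all genes passed it. The adjusted p was 0.9999 at each member. At an unadjusted p under 0.05 there were 10 of 40 members by edgeR's quasi-likelihood test, against 1.99% of all genes, 14 by DESeq2, against 2.26%, and 12 by edgeR's exact test, against 2.25%. After adjustment DESeq2 called 1 member, Hp, with an adjusted p of 0.0168, and 0.338% of all genes. After the same adjustment edgeR's exact test called 0 members and 0.296% of all genes, and limma voom called 0 members and 0% of all genes. With 2 libraries against 2 there are 3 ways to split them, and the test draws its error from the variation edgeR shares over genes.

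The fold changes leaned to lower levels in the NT4 group. The fitted value was lower in NT4 at 37 of 40 members, against 49% of all genes, and the median log2 fold change was -0.90, against 0.0045 over all genes. By the criterion of the study's methods (unadjusted p under 0.05 and a fold change above 2 or under 0.5), 8 of 40 members were lower in NT4, against 0.602% of all genes, and 0 were higher, against 0.478%. Both Control libraries exceeded both NT4 libraries at 17 of 40 members, against 12.7% of all genes, and the reverse held at 0 of 40, against 13.4%.

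The 8 members past that criterion were Hpx, Hp, Itih4, Apob, Ambp, Vtn, Fga and Ttr. Hpx averaged 14.7 ± 12.5 CPM over the Control libraries and 3.01 ± 1.51 CPM over those with NT-4 (SD, n = 2 each), with a log2 fold change of -2.28 ± 0.73 (SE). For Hp the means were 17.1 ± 13.7 and 3.52 ± 0.620 CPM, with -2.28 ± 0.62. In both genes the SD of the Control group was close to its mean. Apob differed in this respect, with means of 1.65 ± 0.261 and 0.574 ± 0.0960 CPM and a log2 fold change of -1.52 ± 0.41. Its counts were low, at 92, 108, 40 and 39. The Poisson interval of Apob in NT4 1, 0.308 to 1.18 CPM, overlapped those of both Control libraries. These were 1.16 to 2.75 CPM in Control 1 and 0.965 to 2.13 CPM in Control 2.

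The remaining log2 fold changes past the criterion were -1.59 ± 0.56 at Itih4, -1.41 ± 0.52 at Ambp, -1.32 ± 0.42 at Vtn, -1.29 ± 0.40 at Fga and -1.19 ± 0.32 at Ttr. Serpina1a with -0.82 ± 0.25 and Plg with -0.97 ± 0.35 passed the unadjusted p alone, their changes being under 2-fold. At the other end lay Alb with -0.09 ± 0.30, Rbp4 with -0.06 ± 0.36, Apoa1 with -0.02 ± 0.20, Cp with 0.18 ± 0.28 and Itih2 with 0.21 ± 0.25. None of these last 5 differed from 0 by more than its SE.

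How far the lower values rested on Control 1 was measured by leaving it out, an alternative that leaves 1 Control library, assumed to vary like the others. The median log2 fold change then moved from -0.90 to -0.30, the members lower in NT4 went from 37 to 26 of 40, against 47.9% of all genes, and those past the study's criterion went from 8 to 2, against 1.99% of all genes in that fit. By edgeR's adjusted p 0 members were called there, against 0.0588% of all genes. Without Control 2 in its place, the median was -1.38, and 22 of 41 members met the criterion, against 2.53% of all genes. In that fit edgeR called 4 members at an adjusted p of 0.05, against 0.183% of all genes. Trf, Hpx and Hp were called as lower in NT4, and Mup3 as higher, against a single Control library in which it had 0 counts. Of the 17 members with both Control libraries above both NT4 libraries, Control 1 also stood alone at 12. The other 5 were Ttr, Apob, Serpina1a, Serpina1b and Plg.

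These 5 stayed lower in NT4 when Control 1 was left out, each by a smaller fold change. Their choice fixed this, because Control 1 was the highest library and Control 2 exceeded both NT4 libraries at each. Apob went from -1.52 to -1.36, Ttr from -1.19 to -0.85, Plg from -0.97 to -0.74, Serpina1a from -0.82 to -0.60 and Serpina1b from -0.60 to -0.29 on the log2 scale. Of the 30 named members lower in NT4, 21 stayed lower without Control 1. The direction turned at Trf, Itih3, Apoh and C4b, where Control 2 did not exceed both NT4 libraries. Trf went from -1.09 to 0.19, Itih3 from -1.02 to 0.37, Apoh from -0.76 to 0.48 and C4b from -1.38 to 0.02. It also turned at Alb (0.40), Rbp4 (0.37), Apoa1 (0.24), Serpinf2 (1.56) and Cps1 (1.26). Apoa2 (-0.078) and Kng1 (-0.11), where Control 2 likewise did not exceed both NT4 libraries, stayed slightly lower. Hpx and Hp stayed lower, at -0.97 and -1.08.

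**Figure D3:**
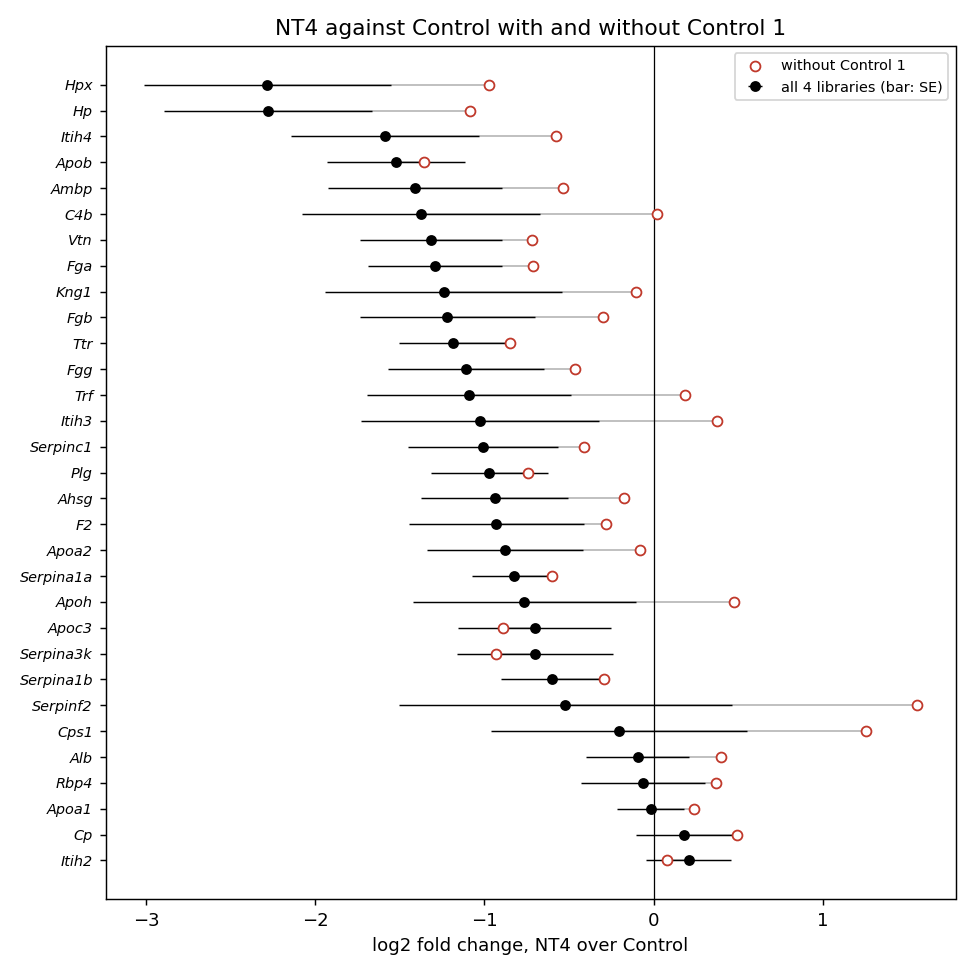
log2 fold change of NT4 over Control for 31 named members (Mup3, at 0 counts in Control 1, is not drawn), from edgeR on all 4 libraries (black, bars are SE) and without Control 1 (open red circles). Hpx and Hp are lowest at -2.28 with all libraries, and the open circles sit nearer to 0 or beyond it for most genes, while Apob moves only from -1.52 to -1.36.

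Related genes outside the set were read as lists grouped by function. Of 48 other liver-made plasma protein genes, 42 were tested and 0 were called by edgeR. Of the 42, 8 had Control 1 standing alone and 29 had it highest, and the other libraries stood alone at 0. Their median log2 fold change was -0.44, with 31 of 42 lower in NT4. Among the most abundant, Apoa4, Apoe and Pros1 had no such gap. Apoa4, an apolipoprotein of chylomicrons and high density lipoprotein, was at 425, 403, 530 and 460 CPM, with NT4 1 the highest library. Over all 48 genes the list summed to 1286, 1038, 1309 and 1153 CPM, highest in NT4 1. Without the 4 most abundant genes it summed to 222, 124, 170 and 114 CPM, highest in Control 1.

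The 8 tested genes of that list at which Control 1 stood alone, named after their values were seen, were Saa1, Saa2, Orm1, Orm2, C3, Apcs, Proz and Serpina10. Saa1 was at 16.1, 2.98, 0.112 and 0.908 CPM and Saa2 at 19.0, 3.91, 0.064 and 0.389 CPM. Both encode serum amyloid A, and Control 1 was the highest library, followed by Control 2. Orm1, which encodes the acute phase carrier orosomucoid, was at 6.65, 1.59, 0.353 and 0.584 CPM, and its close copy Orm2 at 2.41, 0.190, 0.096 and 0.156 CPM.

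A list of 20 hepatocyte genes whose products are not secreted summed to 46.1, 39.2, 38.7 and 39.8 CPM, most of it Fah, the last enzyme of tyrosine breakdown, at 23.1, 28.2, 26.0 and 28.8 CPM. Over the whole list Control 1 held 1.17 times the mean of the others. Without Fah the sum was 22.99, 10.997, 12.69 and 11.04 CPM, and Control 1 held 1.99 times the mean of the others. Cyp7a1, G6pc and Otc were under 12 counts in each library. Of the 17 tested, Control 1 was the highest at 12 and stood alone at 3, Tdo2, Hgd and Uox, and the other libraries stood alone at 0. The next most abundant after Fah was Cyp2e1, a cytochrome P450 of the liver, at 4.44, 1.88, 2.92 and 1.28 CPM. The part of these transcripts in the pattern of the plasma protein genes was not tested.

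Regulators of hepatocyte genes were read in the same way. Of 15, 10 were tested, and Control 1 stood alone at 0 of them and was highest at 1. Foxa1 and Foxa2 had 0 counts in all 4 libraries, and Hnf4a had 12, 52, 8 and 42 counts. Foxa3 had 12, 34, 24 and 52 counts, Nr1i2 15, 15, 0 and 12, and Nr1i3 9, 11, 15 and 7. At such low counts a gap of 2-fold could be missed. The most abundant was Nr5a2, which is also on the granulosa list, at 589, 666, 574 and 644 CPM. Cebpb and Cebpa, which also act outside the liver, were at 54.2, 56.1, 86.7 and 82.6 CPM and at 43.9, 56.2, 7.62 and 77.1 CPM. Neither had Control 1 at the top.

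Markers of other cells that a follicle can hold were listed beside these. The 12 macrophage markers summed to 3.73, 2.39, 4.78 and 3.97 CPM, with Tyrobp at 0 counts in all libraries and Adgre1 under 12 counts in each, and Control 1 was the highest at 3 of 7 tested. The 7 erythroid markers summed to 5.60, 3.23, 4.27 and 5.24 CPM, and Slc4a1 was at 0 counts in all libraries. The 12 theca and stroma markers summed to 1556, 1536, 2200 and 1808 CPM, and none was highest in Control 1. Of these 12, 0 were lower in NT4 by the fitted value, with a median log2 fold change of 0.38, and 0 were called by edgeR. Oocyte markers were the only one of these lists with most members highest in Control 1, at 8 of 9 tested, with sums of 104.9, 72.7, 86.6 and 87.3 CPM. Endothelial markers summed to 26.1, 19.5, 28.5 and 21.8 CPM, surface epithelium markers (Krt19 and Upk1b at 0) to 43.1, 34.9, 43.8 and 39.4 CPM, and gut and yolk sac epithelium markers (Cdx2 and Alpi at 0) to 25.5, 23.4, 27.5 and 23.6 CPM. Control 1 stood alone at 0 of the tested markers of each of these 7 lists, and their part in the result was not tested.

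**Figure D4:**
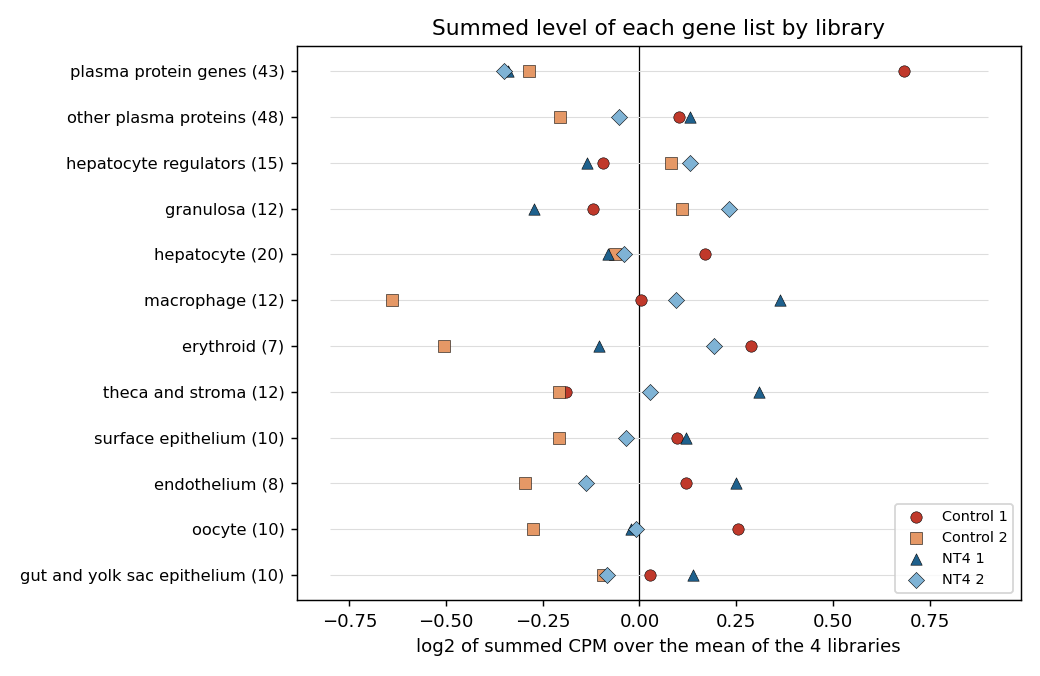
Summed CPM of each gene list in each library, as log2 over the mean of the 4 libraries, with the number of genes of each list in the table in brackets. For the 43 plasma protein genes Control 1 (346.8 CPM) lies apart from the other 3 libraries (169.4 to 177.3 CPM). Each sum is weighted to the most abundant genes of its list.

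The promoter windows of RefSeq (mouse GRCm38.p6, from 250 bases before to 50 bases after each annotated start) were searched for the letters of motifs of hepatocyte factors, on both strands. A window was on hand for 34 of 43 members. The HNF1 arm GTTAAT, the single repeat of its paired site, was found in 13 of 34 members, against 8.24% of 27025 genes. The C/EBP motif TTGCNNAA was found in 16 of 34, against 12.2%, and the FOXA motif TGTTTAC in 3 of 34, against 4.05%. The full HNF1 motif, which is that arm, any base and the arm again on the other strand, was found in 0 of 34, against 0.0111%, and the HNF4 motif CAAAGTCCA in 0 of 34, against 0.555%. TATAAA was found in 9 of 34, against 15.7%.

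Among the 16 members with a window at which Control 1 stood alone, the HNF1 arm was found in 5, the C/EBP motif in 6 and the FOXA motif in 2. These matches describe the letters of a window and show no binding. For 6 members the 250 bases before the start are given, with HNF1 arms, C/EBP and FOXA matches in capitals. Fga (chr3:83025903-83026152, plus strand) and Fgb (chr3:83049864-83050113, minus strand) are shown as genes of 1 locus that share the gap and both motifs. Hpx (chr7:105600117-105600366, minus strand), Vtn (chr11:78498870-78499119, plus strand) and Apoa2 (chr1:171224804-171225053, plus strand) are shown as genes with the gap that hold 1 of these motifs each in the window shown, and Alb (chr5:90460620-90460869, plus strand) as a gene with both motifs at which Control 1 did not stand alone.
Fga: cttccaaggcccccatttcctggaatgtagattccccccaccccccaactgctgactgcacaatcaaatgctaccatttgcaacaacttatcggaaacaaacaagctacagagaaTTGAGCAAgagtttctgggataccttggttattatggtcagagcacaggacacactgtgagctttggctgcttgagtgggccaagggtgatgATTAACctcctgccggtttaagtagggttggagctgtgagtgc
Fgb: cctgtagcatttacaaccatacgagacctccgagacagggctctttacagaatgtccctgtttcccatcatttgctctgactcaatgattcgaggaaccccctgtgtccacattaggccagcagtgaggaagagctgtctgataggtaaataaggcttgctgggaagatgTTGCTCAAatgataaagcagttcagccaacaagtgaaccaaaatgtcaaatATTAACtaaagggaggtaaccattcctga
Hpx: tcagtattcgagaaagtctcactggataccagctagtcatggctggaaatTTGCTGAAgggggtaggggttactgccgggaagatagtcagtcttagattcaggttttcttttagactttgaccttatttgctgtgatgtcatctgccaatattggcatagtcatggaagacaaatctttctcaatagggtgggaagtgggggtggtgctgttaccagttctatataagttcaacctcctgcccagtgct
Vtn: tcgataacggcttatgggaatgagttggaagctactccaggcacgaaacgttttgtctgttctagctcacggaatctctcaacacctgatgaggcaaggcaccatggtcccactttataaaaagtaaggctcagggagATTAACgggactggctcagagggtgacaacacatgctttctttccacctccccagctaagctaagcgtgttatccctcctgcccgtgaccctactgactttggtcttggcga
Apoa2: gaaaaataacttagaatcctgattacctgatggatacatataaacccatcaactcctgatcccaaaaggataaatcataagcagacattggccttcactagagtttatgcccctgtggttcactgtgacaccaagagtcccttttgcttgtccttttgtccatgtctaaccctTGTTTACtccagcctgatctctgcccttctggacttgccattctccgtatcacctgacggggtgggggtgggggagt
Alb: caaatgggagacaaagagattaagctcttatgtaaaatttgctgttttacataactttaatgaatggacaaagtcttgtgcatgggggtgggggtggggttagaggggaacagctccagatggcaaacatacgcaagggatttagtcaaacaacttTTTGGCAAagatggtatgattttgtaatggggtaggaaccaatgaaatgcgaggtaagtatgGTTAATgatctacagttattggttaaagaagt

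The first base of the HNF1 arm lay 43 bases before the start in Fga, 29 in Fgb, 32 in Alb and 112 in Vtn. Fga, Fgb and Alb thus held the same pair of motifs within their windows. Control 1 was 2.01 times the next library at Fga, 2.82 times at Fgb and 1.27 times at Alb. Whether the motifs go with the gap was not tested.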

How the data were processed

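Per the labels and the study's methods, the authors trimmed reads, mapped them with HISAT2 to the mouse genome (mm10, an alias of GRCm38) and estimated expression with StringTie. The authors deposited expected counts, given as whole numbers for each gene and without normalization. The step to whole counts and any use of strand are not given in the sources used here. Counts were read for 55385 genes by Ensembl identifier, and members were matched by symbol through the table of names and GENCODE M21.

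NT4 was compared with Control in R 4.3.3 and edgeR 4.0.16 (quasi-likelihood test, TMM scaling, default filter, two-sided, Benjamini-Hochberg over 19259 genes) with group as the only term. Fold changes are log2 of NT4 over Control with their SE. DESeq2 1.42.0, limma 3.58.1, other scalings, filters and thresholds, the replicate block and leaving out each library were alternatives. Leaving out libraries from the stand-alone count, and alternatives for the study's criterion, were added after the data were seen. The procedure was tested on simulated data.

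Members, lists and tests were chosen with earlier results of these data known. Each member was named. Members reaching 1 CPM in any library were given in every library and the others by counts or ranges. Up to 4 of the most abundant genes of a list were named, and any other gene singled out was chosen after its values were seen. Intervals and floors cover only counting error, because reads copied by PCR are not separate molecules. Some genes of the lists are not reported here.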

Additional observations from a re-analysis of the deposited data

How the results depend on the processing

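The count of members called by edgeR was 0 under every scaling, filter and threshold tried, 1 with the DESeq2 Wald test, and 0 to 4 when 1 library was left out in turn, the 4 without Control 2. Members past the study's criterion numbered 8, 5 with limma voom, and from 2 without Control 1 to 22 without Control 2. Of all 19259 genes tested, 208 met the criterion in the main fit and 186 with limma voom. The median log2 fold change of -0.90 ran from -1.38 to -0.30 with 1 library left out, the latter without Control 1. Control 1 stood alone at 20 members, and at 6 with a ratio of 3 (0.296% of all genes). With libraries thinned to the smallest total it stood alone at 19 (1.4%). When another library was left out it stood alone at 21 to 24, against 2.38% to 3.6% of all genes. Control 2 stood alone at 1 member with a ratio of 1.5 (1.82% of all genes) and at 0 to 2 with 1 library left out (1.61% to 1.83%). With 1 library left out, NT4 1 stood alone at 0 to 1 (2.21% to 3.7%) and NT4 2 at 0 to 1 (1.52% to 2.08%).

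Direction turned under limma voom at Alb (0.0078), Rbp4 (0.040), Mup3 (2.55), Apoa1 (0.021), Serpinf2 (0.26) and Cps1 (0.28). With the replicate number as a block, 0 members were called and 9 met the criterion, against 180 of all 19259 genes. The median there was -0.80, and direction turned at Mup3 (1.44), Apoa1 (0.0024) and Cps1 (0.11). The correlation of deviations by replicate number was 0.14 over all genes and -0.098 over members, which did not show pairing for these genes. Granulosa markers did split by replicate number. Inhba was higher in replicate 2 of both groups (1586 and 2157 CPM in Control, 1204 and 2461 in NT4). Amh was higher in replicate 1 of both (299 and 151 CPM in Control, 391 and 91.5 in NT4). Whether the replicate numbers pair the libraries was not settled. With 1 library left out, direction turned at Alb (-0.46 to 0.40), Trf (-1.76 to 0.19), Cp (-0.079 to 0.50), Rbp4 (-0.40 to 0.37), Mup3 (-1.01 to 9.88), Apoa1 (-0.24 to 0.24), Apoh (-1.43 to 0.48), Serpinf2 (-1.35 to 1.56), Itih2 (-0.13 to 0.48), Itih3 (-1.73 to 0.37), C4b (-2.08 to 0.023) and Cps1 (-0.92 to 1.26). The other 20 named members lower in NT4 kept their direction under all alternatives, and the causes were not tested. The 8 tested members under 1 CPM had SEs of 0.59 to 1.65 on the log2 scale.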
